A study of Mus musculus with 6 samples.

Results

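Cleavage and polyadenylation factors are the proteins that cut a nascent transcript and add its poly(A) tail, and 10 of their genes were followed here. The genes were Cpsf1, Cpsf2, Cpsf3, Cpsf4, Cpsf6, Cpsf7, Cstf1, Cstf2, Cstf3 and Pcf11, taken by symbol from a table of 23281 genes, and all 10 were present. They were chosen by function and not by a measured value, though with earlier results of these data known. All except Cpsf4, Cpsf6 and Cstf1 overlap another annotated gene, in each case with one on the opposite strand, and reads of both cannot be told apart if strand was not used in counting. Cstf2 and Cpsf4 may also share reads with the similar genes Cstf2t and Cpsf4l. Nuclear RNA was taken from female mouse embryonic stem (ES) cells, strain background 129S X Cast, grown in ES medium after the feeder cells had been removed by pre-plating. On the 129S allele a TetOn promoter stood in place of the promoter of Xist, and a Bgl stem-loop had been put into the Xist 3' end. All cultures shared these alleles, and all received 1 µg/ml doxycycline for 17.5 to 20 h. They were then given 500 µM 4-thiouridine (4sU), a uridine analogue that marks newly made RNA, with doxycycline for 4 h. In SLAM-seq the 4sU is alkylated with iodoacetamide and then read as a T-to-C (T>C) conversion. The groups were 0 min, with no washout, and 30, 60, 90, 120 and 150 min in medium with doxycycline and 50 mM uridine, with 1 library per time and no replicates. Cultures without 4sU or without doxycycline were not analysed here.

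A polyadenylated mRNA is made when CPSF, the cleavage and polyadenylation specificity factor, recognises the hexamer AATAAA (in DNA letters) or a close relative of it in the nascent RNA. CstF, the cleavage stimulation factor, binds downstream of the cut, cleavage factor I binds upstream of it, and cleavage factor II links the machinery to RNA polymerase II and to termination. Which of several poly(A) sites a gene uses, and so how long its final exon is, depends on the amounts of these factors.

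The 6 libraries held 18558073 to 28535162 reads, and the 10 genes received 699 to 5891 reads each per library. The time of each data column was inferred from the number in its name, so every slope rests on that reading. The median labelled share over 11462 tested genes was 46.8, 45.8, 44.5, 39.3, 27.7 and 21.1% in time order. Summed over genes, T>C conversions were 4.05, 2.69, 4.11, 2.57, 1.55 and 1.17% of covered T positions, so the library read as 60 min stood above that read as 30 min. All 10 embryonic stem cell markers, such as Pou5f1 and Nanog, were detected in every library, with a summed level of 2866 to 3366 CPM, a level relative to the library total scaled by TMM. The 12 markers of fibroblast feeder cells summed to 2727 to 4179 CPM, highest at 0 min, and Lum was at 0 in at least 1 library. The part of feeder RNA in the results was not tested.

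The labelled share of 7 of the 10 genes fell during the washout and none rose, by limma at an adjusted p under 0.05 over all 11462 genes. Of all tested genes 52.3% fell and 1.19% rose by the same rule, so the members' count was not far from that background. The genes that fell were, from the fastest, Pcf11, Cstf1, Cpsf7, Cpsf4, Cstf3, Cpsf6 and Cpsf1, and the remaining genes were Cpsf2, Cstf2 and Cpsf3. Loss of label is the fall of the natural log of the labelled share per hour, and ln 2 divided by it is a half-life of label in nuclear RNA, in which decay and export from the nucleus cannot be told apart. Such a half-life describes the line fitted over all 6 libraries and is not the time at which an observed share had halved. The median loss over the members was 0.283 per h, against 0.247 per h over all tested genes. The libraries decided part of these calls, since 4 members fell when the 120 min library was left out, against 44.5% of all genes, and 3 when that of 150 min was, against 31.3%. When the 60 or the 90 min library was left out, 8 members fell, against 55.3 and 54% of all genes. With libraries weighted by the width of the posterior, 2 members (Pcf11 and Cpsf7) fell, against 25.7% of all genes. That weighting put the loss at 0.572 per h for Pcf11 and 0.345 per h for Cstf1, where the unweighted values were 0.928 and 0.7 per h.

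**Figure D1:**
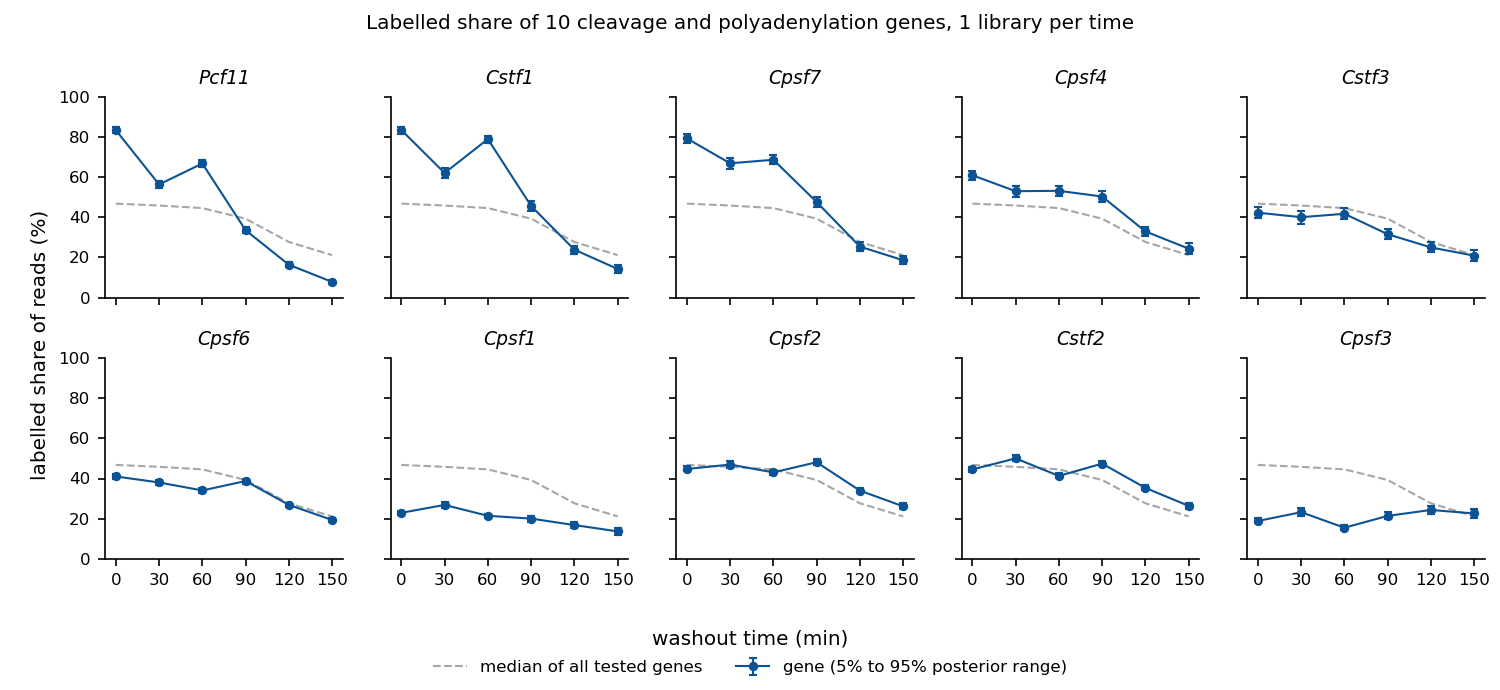
Labelled share of reads (y axis, %) against washout time (x axis, min) for each of the 10 genes, 1 library per time. Points are posterior means with the 5% to 95% posterior range of that library, and the dashed line is the median of all tested genes. Pcf11, Cstf1 and Cpsf7 start near 80% and cross the median line, while Cpsf3 stays between 15.5 and 24.4%.

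Pcf11 encodes the cleavage factor II subunit that binds the C-terminal domain of RNA polymerase II and promotes termination, and it lost label fastest of the 10. Its gene (ENSMUSG00000041328; chromosome 7, 92643543 to 92669934 in mm10, minus strand) spans 26.4 kb. The labelled share of Pcf11 was 83.3, 56.3, 66.7, 33.5, 16.3 and 7.81% at 0, 30, 60, 90, 120 and 150 min. The share was lower at each step except from 30 to 60 min, and the 5% to 95% posterior range was 81.8 to 84.7% at 0 min and 6.82 to 8.86% at 150 min. The loss was 0.928 ± 0.159 per h (SE, 6 libraries). Expressed as a half-life, the fitted slope was 44.8 min (1 SE either way, 38.3 to 54.1 min), with an adjusted p of 5.12e-05 in limma. It ranked 366 of 11462 from the fastest.

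The poly(A) signal, which CPSF reads, was looked for in the last 50 bases of the longest coding transcript of each gene in the GENCODE M21 basic set, on the sense strand. AATAAA was found for 6 members and ATTAAA, without AATAAA, for 2. Neither was found for Cpsf1 and Cpsf3, which says only that these letters are not in that window of the annotated transcript. Of 21864 coding genes searched in the same way, 59.2% held AATAAA and a further 13.0% held ATTAAA. The sequences below show both members with the variant hexamer (Pcf11 and Cpsf4), the other fast members (Cstf1 and Cpsf7) and a slow one (Cpsf2), 5′ to 3′, with the hexamer in capitals.
Pcf11, chr7:92643555-92643584, minus strand: tacatatacagtATTAAAacttgtgatttt
Cpsf4, chr5:145182010-145182039, plus strand: tctatgaggttgATTAAAaagcttgttttt
Cstf1, chr2:172382412-172382441, plus strand: tgtgatttctaaAATAAAttttttttatat
Cpsf7, chr19:10547621-10547650, plus strand: tgaaaattgtgtAATAAActtgatgacgat
Cpsf2, chr12:102006396-102006424, plus strand: atttcgctaataAATAAAagatgctgagc
The variant hexamer stood at the fastest gene and at one near the middle, and the common hexamer at fast and slow genes alike. In each of these transcripts the hexamer began within 30 bases of the annotated end.

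Cpsf7 and Cpsf6 encode the larger subunits of cleavage factor I, which binds UGUA elements upstream of poly(A) sites through its partner Nudt21 and favours distal sites. They are alternative partners in the same complex, and Cpsf7 began the washout with the higher labelled share. The labelled share of Cpsf7 (ENSMUSG00000034820; chromosome 19, 10525266 to 10547653, plus strand) was 79.2, 66.8, 68.6, 47.6, 25.4 and 18.6% in time order. The loss for Cpsf7 was 0.601 ± 0.103 per h (SE, 6 libraries). Expressed as a half-life, the fitted slope was 69.2 min, with an adjusted p of 0.000153 in limma. The labelled share of Cpsf6 (ENSMUSG00000055531; chromosome 10, 117344673 to 117380015, minus strand) was 41.0, 38.0, 34.0, 38.7, 26.9 and 19.4%. It stayed within 7 percentage points of its starting value through 90 min and was lower at 120 and 150 min. The loss for Cpsf6 was 0.267 ± 0.077 per h. Expressed as a half-life, the fitted slope was 156 min (1 SE either way, 121 to 219 min), with an adjusted p of 0.025 in limma. The call for Cpsf6 was lost without the 0, 30, 120 or 150 min library (limma adjusted p = 0.0526, 0.0611, 0.07 and 0.33), and without that of 150 min the loss was 0.165 per h. The loss for Cpsf7 exceeded that for Cpsf6 by 0.334 ± 0.080 per h, a difference that missed the threshold over 45 pairs (exact permutation p = 0.0222, adjusted p = 0.0521).

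The CstF genes lay apart from each other, with losses from 0.201 per h for Cstf2 to 0.7 per h for Cstf1. CstF is built on a dimer of the scaffold encoded by Cstf3, carries the RNA-binding subunit encoded by Cstf2, which contacts the GU-rich element downstream of the cut, and includes the WD40 protein encoded by Cstf1. The labelled share of Cstf1 (ENSMUSG00000027498; chromosome 2, 172370681 to 172382448, plus strand) was 83.4, 62.0, 78.9, 45.6, 23.8 and 14.2%. The dip at 30 min is larger than its posterior range, which was 59.5 to 64.5% at 30 min and 77.1 to 80.6% at 60 min. The loss for Cstf1 was 0.7 ± 0.145 per h. Expressed as a half-life, the fitted slope was 59.4 min (1 SE either way, 49.2 to 74.96 min), with an adjusted p of 0.000124 in limma.

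Cstf3 (ENSMUSG00000027176; chromosome 2, 104590523 to 104665429, plus strand), with 74.9 kb the longest of the 10 gene bodies, had labelled shares of 42.2, 40.01, 41.7, 31.5, 24.96 and 20.9%. Its half-life was 139 min (1 SE either way, 118 to 170 min), with an adjusted p of 0.0104 in limma, and the call was lost without the 120 or the 150 min library (limma adjusted p = 0.0529 and 0.113). Cstf2 (ENSMUSG00000031256; chromosome X, 134059187 to 134086819, plus strand) is the X-linked member. Its labelled share was 44.5, 50.0, 41.3, 47.4, 35.3 and 26.4%, and at 30 and 90 min it stood above its value at 0 min. The loss for Cstf2 was 0.201 ± 0.077 per h and was not called (limma adjusted p = 0.0827), although it passed without the 60 min library (limma adjusted p = 0.0486). Without the 150 min library the loss for Cstf2 was 0.103 per h. Cstf1 exceeded Cstf3 in loss of label by 0.401 ± 0.095 per h (exact permutation p = 0.0139, adjusted p = 0.0391 over 45 pairs). Its excess over Cstf2 was 0.499 ± 0.125 per h and missed the threshold (exact permutation p = 0.0278, adjusted p = 0.0521).

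Cpsf1, Cpsf2 and Cpsf3 were among the slower members, and Cpsf4 came next after Cpsf7 in the order. Cpsf4 encodes the zinc finger subunit that, with the Wdr33 protein, contacts the poly(A) signal. Its labelled share (ENSMUSG00000029625; chromosome 5, 145167213 to 145182041, plus strand) was 60.9, 52.9, 53.1, 50.3, 32.9 and 24.4%. Most of the fall came after 90 min. The half-life of Cpsf4 was 120 min (1 SE either way, 98.4 to 154 min), with an adjusted p of 0.00538 in limma, and the call was lost without the 150 min library (limma adjusted p = 0.119).

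Cpsf1 encodes the large scaffold subunit of CPSF. Its labelled share (ENSMUSG00000034022; chromosome 15, 76595803 to 76607591, minus strand) was low throughout, at 22.9, 26.9, 21.4, 20.1, 16.8 and 13.7%. The half-life of Cpsf1 was 180 min (1 SE either way, 146 to 234 min), with an adjusted p of 0.0393 in limma. That call was lost without the 30, 120 or 150 min library (limma adjusted p = 0.189, 0.13 and 0.275) and on the logit scale (0.0698).

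Cpsf2 and Cpsf3 encode related proteins of the metallo-beta-lactamase family. The Cpsf3 product is the endonuclease that makes the cut, and the Cpsf2 product is its partner without catalytic activity. The labelled share of Cpsf2 (ENSMUSG00000041781; chromosome 12, 101975988 to 102006424, plus strand) was 44.7, 46.9, 43.0, 48.1, 34.0 and 26.1%. It was highest at 90 min and lowest at 150 min. The loss for Cpsf2 was 0.202 ± 0.077 per h and was not called (limma adjusted p = 0.0815), although it passed without the 90 min library (limma adjusted p = 0.0456). Without the 150 min library the loss for Cpsf2 was 0.105 per h. The labelled share of Cpsf3 (ENSMUSG00000054309; chromosome 12, 21285391 to 21315056, plus strand) was 18.9, 23.2, 15.5, 21.4, 24.4 and 22.6%. Cpsf3 was the only one of the 10 whose lowest share was not at 150 min. Its slope was -0.078 ± 0.081 per h as a loss, a change in the direction of gain that was not called (limma adjusted p = 0.52), and it ranked 10321 of 11462 from the fastest. Cpsf3 had 1279 to 2469 reads per library and a mean of 1850, above the means of Cpsf4 (1239), Cpsf7 (1300.3) and Cstf3 (870).

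**Figure D2:**
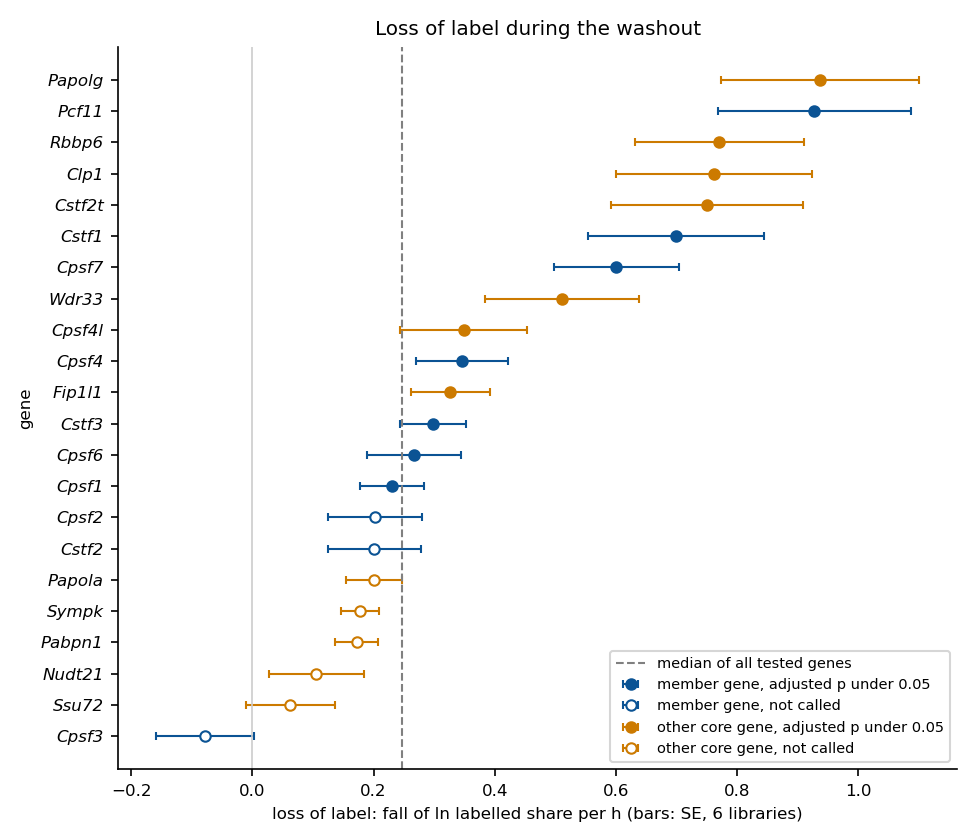
Loss of label (x axis, fall of the natural log of the labelled share per h; bars are SE over 6 libraries) for the 10 members and 12 other core cleavage and polyadenylation genes (y axis). Filled points had a limma adjusted p under 0.05, open points did not, and the dashed line is the median of all tested genes at 0.247 per h. Pcf11 and Papolg lie at the top and Cpsf3 at the bottom.

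Whether the members differed from each other was tested on the difference of their log shares within each library, which removes what a library does to both genes alike. Of 45 pairs, 16 differed (exact permutation of the 6 times, two-sided, Benjamini-Hochberg adjusted p = 0.0391 for each of the 16), and 30 had an unadjusted p under 0.05. The smallest p the 720 orders allow is 0.00278. All 9 pairs with Pcf11 were among the 16. Their differences ran from 0.228 ± 0.021 per h against Cstf1, the next fastest, to 1.01 ± 0.22 per h against Cpsf3. These are differences in labelled share. On labelled level (share times total level) the losses for Pcf11 and Cstf1 were closer, at 0.699 and 0.65 per h, and were not compared by a test. Cpsf7 lost label faster than Cpsf4, Cstf3, Cpsf2 and Cstf2, by 0.255 to 0.4 per h. Cstf1 and Cpsf7, neighbours in the order, did not differ beyond their scatter (0.099 ± 0.054 per h, adjusted exact permutation p = 0.168). In the middle and lower part of the order no neighbours from Cpsf4 to Cpsf3 differed at the threshold, although Cpsf4 and Cpsf6 each exceeded Cpsf2 (by 0.144 ± 0.029 and 0.064 ± 0.019 per h). Cpsf2 and Cstf2 had nearly the same loss, with a difference of 0.001 ± 0.020 per h (adjusted exact permutation p = 0.956). The count was 0 when the 0, 30, 90, 120 or 150 min library was left out. Without the 0 or the 150 min library, the 5 evenly spaced times left allow no p below 0.0167. With another library left out a smaller p is possible. The count of differing pairs was 26 without the 60 min library, and 35 with the 30 and 60 min times exchanged. Pairs of other genes were not tested, so these counts have no background.

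Against the median of all tested genes in the same library, Pcf11 lost label faster by 0.607 ± 0.101 per h and Cpsf7 by 0.281 ± 0.045 per h (exact permutation p = 0.00833 and adjusted p = 0.0417 over the 10 members, for both). The difference for Cstf1 was 0.379 ± 0.088 per h and missed the threshold (exact permutation p = 0.0194, adjusted p = 0.0648). Cpsf3 and Cpsf2 lay below the median gene by point estimate, at -0.398 ± 0.123 and -0.118 ± 0.032 per h, and missed it too (exact permutation p = 0.0361, adjusted p = 0.0722, for both). Neither call held without the 0, 90, 120 or 150 min library or on the logit scale, and 6 members passed without the 60 min library. Without the 0 or the 150 min library no p below 0.0167 is possible, so a call there would need several members at that floor. Only the members were tested in this way, so these counts have no share of all genes to be read against.

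**Figure D3:**
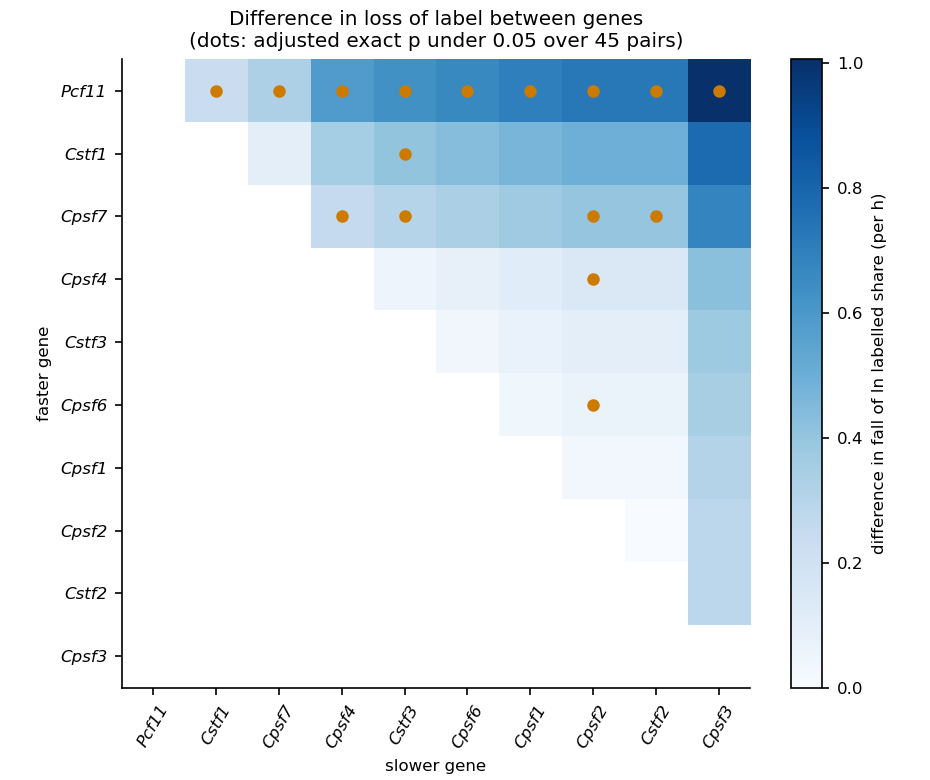
Difference in loss of label (colour, fall of the natural log of the labelled share per h) between the faster gene (y axis) and the slower gene (x axis) of each of 45 pairs, with genes ordered by loss of label. Dots mark the 16 pairs with an adjusted exact permutation p under 0.05, and the whole row of Pcf11 carries them.

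The raw T>C rate, which does not use the authors' posterior, gave the same order at its ends. By this measure 9 of the 10 members fell (limma), against 66.9% of all tested genes, and the exception was Cpsf3. The T>C rate of Pcf11 was 8.17, 3.37, 6.73, 2.25, 0.862 and 0.46% in time order, and its fall was 1.12 ± 0.24 per h (limma adjusted p = 0.000153). The T>C rate of Cpsf3 was 1.94, 1.65, 1.75, 1.65, 1.39 and 1.29%, a fall of 0.15 ± 0.03 per h that was not called (limma adjusted p = 0.378). The rate of Cpsf3 thus had its lowest value at 150 min, where its labelled share was above the starting share. Cstf2 and Cpsf2, not called by labelled share, fell by T>C rate by 0.479 ± 0.139 and 0.48 ± 0.149 per h (limma adjusted p = 0.0159 and 0.0166). Both calls were lost without the 0 min library (limma adjusted p = 0.0602 for Cstf2 and 0.0579 for Cpsf2), without that of 120 min (0.0614 and 0.0662) and without that of 150 min (0.291 and 0.28). Without the 150 min library 3 members fell by T>C rate, against 23.7% of all genes.

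At the end of the pulse the members were labelled to very different extents. The labelled share at 0 min was highest for Cstf1 and Pcf11, which stood above 89.9 and 89.8% of all tested genes, and lowest for Cpsf3 and Cpsf1, above 12.2 and 17.8% of them. If levels were constant and labelling began at once, a share of 83.3% after 4 h would correspond to a half-life of 92.9 min for Pcf11, against 44.8 min from the washout. For Cpsf1 the same reckoning gave 639 min, against 180 min from the washout. Uptake gave the longer half-life for each of the 7 members called as falling, and both estimates use the 0 min library. The share of all tested genes for which this held was not computed.

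**Figure D4:**
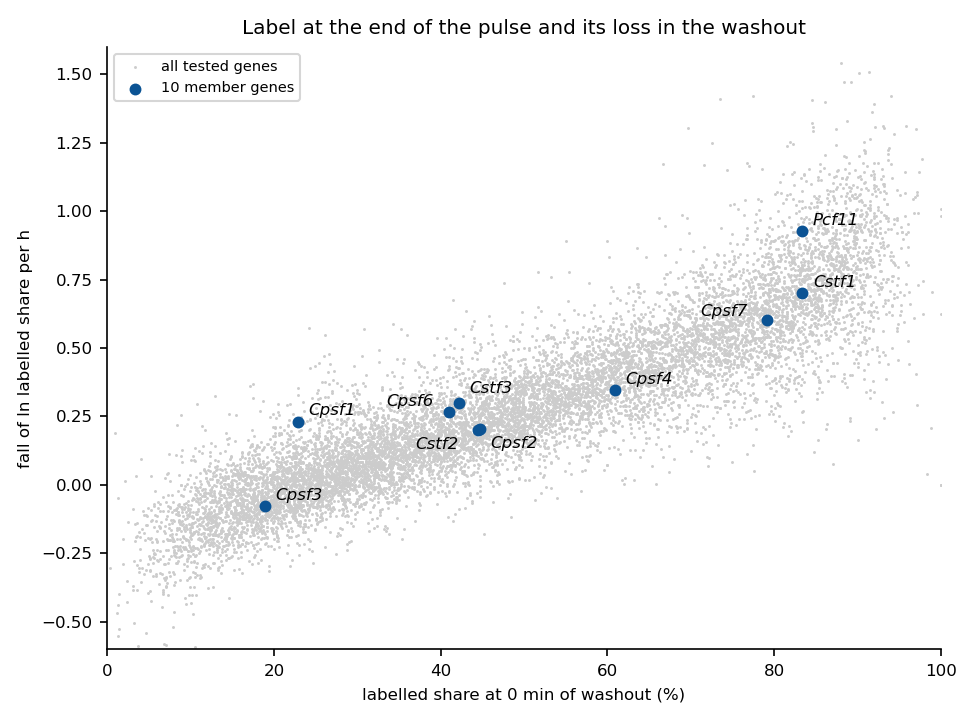
Labelled share at 0 min (x axis, %) against the fall of the natural log of the labelled share per h (y axis) for all 11462 tested genes (grey, 2 of them outside the axes) and the 10 members (blue). The members run along the cloud from Cpsf3 at the lower left to Pcf11 at the upper right, and Cpsf1 lies toward its upper edge.

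The loss was uneven over the washout. Between 0 and 90 min the labelled share of Pcf11 changed by -59.8%, of Cstf1 by -45.3% and of Cpsf7 by -39.9%, relative to the 0 min value. Over the same 90 min Cpsf6 changed by -5.51%, while Cpsf2, Cstf2 and Cpsf3 stood 7.49, 6.49 and 13.3% higher than at 0 min. The median of all tested genes was -10.2%. From 90 to 150 min 9 of the 10 members were lower, with changes between -31.7% for Cpsf1 and -76.7% for Pcf11, and Cpsf3 was 5.61% higher. The median change over all tested genes was -41.5% in that interval. Each value compares 2 libraries and has no replicate check.

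Total reads were examined because a half-life from a share takes levels as constant. No member had a slope that passed in edgeR (0 of 10, where 0% of 15743 genes rose and 0% fell), 4 had a positive and 2 a negative slope at an unadjusted p under 0.05, and by that rule 11.5% of all genes rose and 10.2% fell. DESeq2 called 2 members, Pcf11 and Cstf3, both rising (DESeq2 adjusted p = 0.0195 and 0.0425), where 1.99% of genes rose and 2.24% fell. The slope of total reads was above 0 for 8 of the 10 members and for 48.9% of all genes tested. The total level of Pcf11 was 94.0, 131, 95.04, 153, 159 and 169 CPM in time order. Its 0 and 60 min libraries were alike and lower than the other 4. The slope for Pcf11 was 0.32 ± 0.09 log2 per h (SE; edgeR adjusted p = 0.104). Cstf3 had 30.4, 33.9, 30.5, 41.2, 43.7 and 44.7 CPM, again with 0 and 60 min lowest (0.24 ± 0.07 log2 per h, edgeR adjusted p = 0.106).

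Cpsf1 and Cpsf3 sloped the other way. The total level of Cpsf1 was 125, 119, 127, 100.5, 101.2 and 94.0 CPM (-0.18 ± 0.06 log2 per h, edgeR adjusted p = 0.154). The total level of Cpsf3 was 87.0, 77.3, 92.3, 73.9, 66.0 and 69.6 CPM (-0.15 ± 0.07 log2 per h, edgeR adjusted p = 0.23). Both were highest at 60 min, the time at which Cpsf2, Cpsf4, Cpsf6, Cpsf7 and Cstf2 were lowest. Without the 60 min library edgeR called 5 members (4 rising, against 5.06% of all genes, and 1 falling, against 4.13%). After an exchange of the 30 and 60 min times edgeR called 7 (5 rising, against 10.1%, and 2 falling, against 8.22%). The count of members whose total level passed thus changed with the times given to those libraries.

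Split by the labelled share, the level of labelled Pcf11 RNA was 78.3, 73.5, 63.4, 51.4, 25.9 and 13.2 CPM in time order. The unlabelled level was 15.7, 57.1, 31.6, 102, 133 and 156 CPM, lowest at 0 min and highest at 150 min. For Cpsf6 the labelled level was 74.4, 77.6, 54.9, 82.5, 61.8 and 51.1 CPM and the unlabelled level 107, 126, 106, 131, 168 and 213 CPM. On labelled level in place of labelled share 5 members fell, against 47.5% of all genes. Of these, Pcf11, Cstf1 and Cpsf7 had losses of 0.699, 0.65 and 0.435 per h, against 0.928, 0.7 and 0.601 per h on share. Differences between members were not tested on labelled level. The slope for Cpsf6 was then 0.123 per h, against 0.267 per h on labelled share, and that for Cstf3 was 0.128 per h, against 0.298 per h, and neither passed (limma adjusted p = 0.309 and 0.232). Per kb of the length in the table, the mean total level ran from 13.3 CPM for Cstf3 and 15.6 CPM for Cpsf7 to 31.1 CPM for Cpsf3 and 32.0 CPM for Cpsf6. The 5 highest on this scale were Cpsf6, Cpsf3, Cpsf2, Cstf2 and Cpsf1, all among the slower members, and the lowest was Cstf3. The margin was small, with 24.6 CPM for Cpsf1 and 22.3 CPM for the fast Pcf11. Level was not set against loss of label over all tested genes. Fewer cells of a type and less RNA per cell cannot be told apart in these bulk samples.

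**Figure D5:**
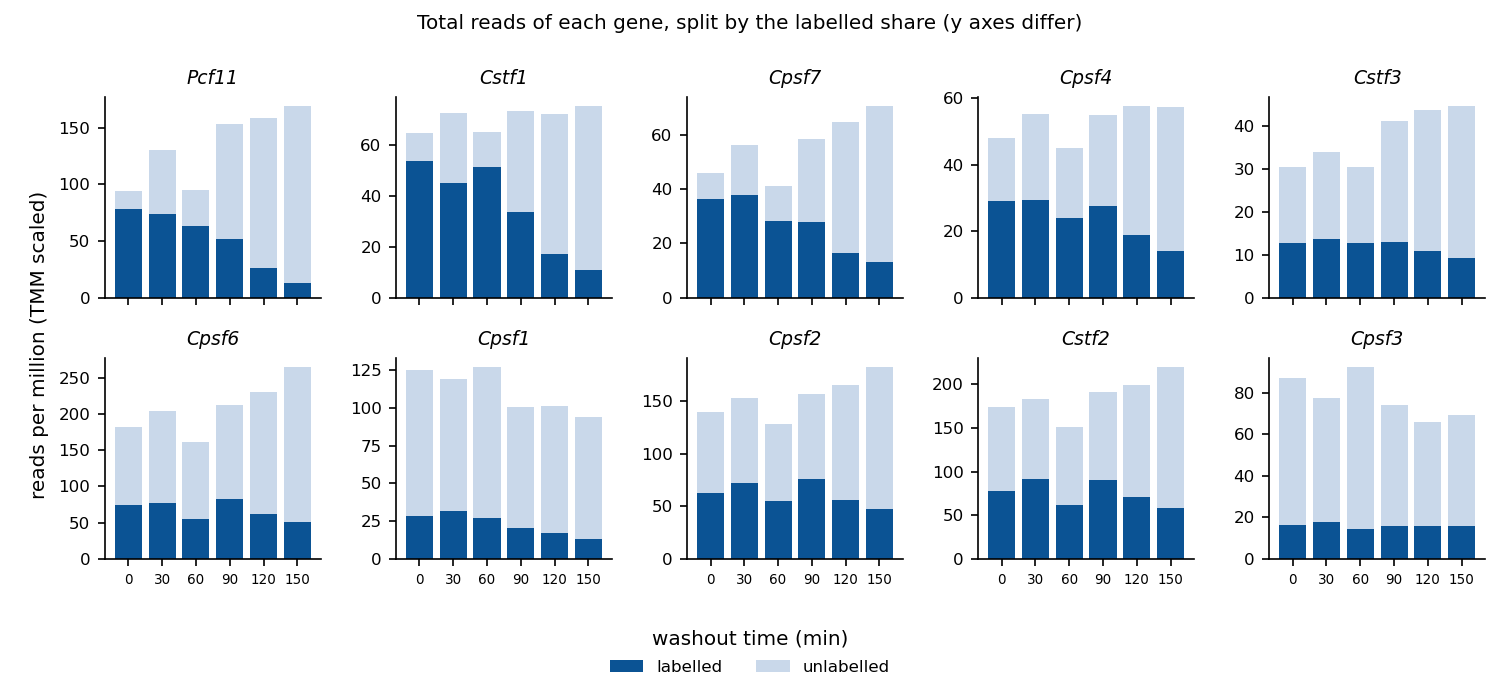
Total level of each gene (y axis, CPM with TMM scaling, a scale of its own in each panel) at each washout time (x axis, min), split into labelled (dark) and unlabelled (light) RNA by the labelled share. The unlabelled part of Pcf11 grows to 156 CPM at 150 min, while the labelled part of Cpsf3 stays between 14.3 and 17.97 CPM.

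Other genes of the same pathway also differed widely in loss of label. Of 12 other core cleavage and polyadenylation genes 7 fell and 0 rose by limma, near the 52.3% of all tested genes that fell, with a median loss of 0.338 per h. Papolg, a nuclear poly(A) polymerase, had a half-life of 44.4 min, close to that of Pcf11. Rbbp6, an activator of cleavage, had 54.0 min, Clp1, the RNA kinase that partners Pcf11 in cleavage factor II, had 54.6 min, and Cstf2t, a paralogue of Cstf2, had 55.5 min. Wdr33, which reads the poly(A) signal with Cpsf4, had 81.2 min, Cpsf4l had 119 min and Fip1l1, which brings in the polymerase, had 127 min. The 7 limma adjusted p lay at or below 0.00813. Not called were Papola, the main poly(A) polymerase (0.201 ± 0.046 per h, limma adjusted p = 0.0668), the scaffold Sympk (0.0959), Pabpn1, the nuclear poly(A)-binding protein (0.11), Nudt21 (0.369) and the phosphatase Ssu72 (0.604). These calls are on labelled share. By T>C rate 11 of the 12 genes fell (limma), against 66.9% of all tested genes.

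The lists around the pathway are to be read against the same 52.3% of all genes. All 5 histone pre-mRNA 3' end genes fell, from Zfp473 (52.9 min) to Lsm10 (105 min), with a median loss of 0.621 per h. Of 12 termination genes 9 fell, with a median of 0.454 per h. Ppp1r10, a targeting subunit of protein phosphatase 1, was the fastest of them at 36.4 min, and Tox4 the slowest called at 160 min. Xrn2, the exonuclease of the torpedo model of termination, had a labelled share of 18.4% at 0 min, 15.9% at 150 min and no call (limma adjusted p = 0.816). Of 14 Integrator genes 6 fell, from Ints6 (48.0 min) to Ints7 (133 min), with a median of 0.209 per h. Ints11, the endonuclease of Integrator and a homologue of Cpsf3, was 28.0% labelled at 0 min and 27.5% at 150 min, with a loss of -0.009 ± 0.051 per h (limma adjusted p = 0.946). In none of these lists did a gene rise by limma. By T>C rate 5 of 5 histone 3' end, 9 of 12 termination and 9 of 14 Integrator genes fell (limma), against 66.9% of all tested genes.

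For each member, the non-member with the most similar labelled shares over the 6 libraries was found among 7530 genes (mean reads of 500 or more) by the root mean square distance in percentage points. For Pcf11 it was Cdc25a, with 85.2, 55.2, 69.4, 31.2, 17.2 and 7.52%, at a distance of 1.76 points, and 169 genes lay within 5 points. For Cpsf3 it was Drosha at 1.23 points, with 804 genes within 5 points. The other pairs were Cpsf1 with Tsc2 (0.702 points), Cpsf2 with Gm29609 (0.801), Cstf2 with Edem1 (1.02), Cpsf6 with Ap3m1 (1.36), Cstf3 with BC005624 (1.36), Cstf1 with Ralgds (1.37), Cpsf4 with Bysl (1.71) and Cpsf7 with Katnbl1 (1.83). Over the other members that count ran from 270 for Cstf3 to 719 for Cpsf2, so Pcf11 had the fewest genes near its profile and Cpsf3 the most.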

How the data were processed

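Per the submitters' processing notes, reads (paired ends of 81 nt from stranded total RNA libraries made from 1 µg nuclear RNA, per the labels' protocols) were aligned with STAR 2.5.2b to mm10. How reads were counted per gene, with which annotation and with what use of strand, was not given in the sources used here, and 7 of the 10 genes overlap another annotated gene (all except Cpsf4, Cpsf6 and Cstf1). Per the file headers, the authors deposited read counts per gene, not normalized, and whole-number T>C conversions and covered T positions (coverage), to 4 significant digits. Another deposited value, also per the file headers, was the fraction of a gene's RNA that was labelled, as the mean, mode and 5% and 95% quantiles of a posterior, which cover uncertainty within 1 library only. Columns were tied to times by the number in their names. Gene IDs were matched to GENCODE M21 (23223 genes, 99.8%), whose transcripts gave the printed sequences. There were 30 other value columns, not used here.

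limma 3.58.1 tested the slope of the natural log of the fraction, and of conversions over coverage, on time in hours, for genes averaging 100 reads or more whose fraction was above 0 in each of the 6 libraries. This left 4 residual degrees of freedom. edgeR 4.0.16 (quasi-likelihood, TMM, filterByExpr) tested total counts, with DESeq2 1.42.0 as an alternative. P-values were adjusted by Benjamini-Hochberg over all genes tested, with a threshold of 0.05. The limma and edgeR fits were tested on simulated data. SE of a share slope is from least squares over the libraries. Member differences used exact two-sided permutation of the times (numpy 2.4.6). With 1 library per time, p-values measure scatter around a line and not a spread between cultures. The members, the lists, the tests and the rule for naming genes (all members, all other core genes, the fastest and slowest called gene of each supporting list, and the nearest non-member) were chosen with earlier results of these data known. Xrn2 and Ints11 are named beyond that rule, chosen after their values were seen.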

Additional observations from a re-analysis of the deposited data

How the results depend on the processing

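No paired analysis was possible because there was a single library at each time. Leaving out 1 library at a time gave 3 to 8 members with a decline in labelled share, 3 to 9 with a decline in T>C rate, 0 to 5 with a slope in total reads, 0 to 26 differing pairs and 0 to 6 members differing from the median gene. Over all genes the same settings called 3582 to 6335 of 11462 by labelled share and 2712 to 9236 of 11459 by T>C rate. By total reads they called 0 to 1413 genes. With posterior weights 2 members declined in labelled share. For total reads, 2 members passed without the 30 and 60 min libraries, against 559 of 15408 genes, and 7 with those times exchanged, against 2885 of 15743. With DESeq2 2 members passed, against 584 of 13802 genes, and with no filter on low counts 1 passed, against 399 of 23281. Of the pairs, 0 differed without the 30 and 60 min libraries, where 4 libraries allow only 24 orders of the times, and 35 with the times exchanged. Against the median gene, 0 members differed without the 30 and 60 min libraries, 6 with the times exchanged and 0 on the logit scale. The first of these also rests on 24 orders, too few for it to show that a call was lost. The loss for Cpsf3 turned positive, at 0.0257 per h, on labelled level. The cause of these changes was not tested. The declines in labelled share of Cpsf1 and Cpsf6 did not pass with no minimum of reads (limma adjusted p = 0.0699 and 0.0573), nor that of Cstf1 with posterior weights (0.0554). Pcf11 and Cpsf7 kept the call of a decline in labelled share in all 14 alternatives, although the loss for Pcf11 was 0.572 per h with posterior weights. Depth was 699 to 5891 reads per member and library, and there was 1 library per time.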

Other observations

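Genes whose proteins act together, or that are copies of one another, could be set side by side by their values, a choice made after those values were seen and given without a test. Cstf2t had 82.3, 59.0, 74.8, 44.2, 23.2 and 11.6% labelled in time order, whereas Cstf2 had 44.5, 50.0, 41.3, 47.4, 35.3 and 26.4%. Both encode the RNA-binding subunit of CstF, and reads of such similar sequences may be split between them in counting. Clp1 and Pcf11, the partners in cleavage factor II, both began above 80% (82.5 and 83.3%) and ended at 11.6 and 7.81%. Both poly(A) polymerases were measured, and the share of Papolg was 79.7% at 0 min and 7.19% at 150 min, whereas that of Papola was 36.6 and 21.7%. Both endonucleases, Cpsf3 and Ints11, showed no called loss of label by labelled share, where 52.3% of all tested genes were called as falling. The T>C rate of Cpsf3 had a fall of 0.15 ± 0.03 per h, also not called (limma adjusted p = 0.378).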
